A study of Mus musculus with 9 samples.

Results

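Collagens form the fibres and sheets that hold skin, cartilage and vessels together, and 42 collagen genes were measured in whole ear skin of female C57BL/6 mice aged 7 to 9 weeks. The members are the genes whose symbol on the array reads Col, a number, the letter a and a number, each taken from probe sets that carry 1 symbol, with the brightest probe set kept per gene. Col7a1 and Col17a1, which anchor the epidermis, were left out of the set. The 42 members stand among 19938 genes tested.

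The groups were ears given anisomycin, ears given imiquimod and vehicle ears, with 3 arrays per group. Anisomycin, an antibiotic that blocks the ribosome and activates stress kinases, was applied daily at 2 mg/ml in 99.5% ethanol, 10 µl to each side of the ear. The Toll-like receptor 7 agonist imiquimod, used to provoke psoriasis-like inflammation, was applied daily as 10 mg of a 5% cream. Both treatments lasted 5 days. The labels do not say what the vehicle was or how long it was given, so the ethanol, the cream base and the duration have no separate control here. RNA came from the whole ear, with epidermis, dermis, cartilage, muscle and fat together, and in such bulk RNA fewer cells of a type and less RNA per cell cannot be told apart. The labels do not say that the 3 samples of a group were separate animals beyond giving n = 3. If they were not, p-values measure only a technical spread.

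A collagen is built from chains that wind into a triple helix inside the endoplasmic reticulum. The chains are hydroxylated and folded by dedicated enzymes and chaperones, secreted, trimmed at their ends and then assembled. Fibrillar collagens make the rope-like fibrils of the dermis, network collagens make the sheets of basement membranes, cartilage collagens make the finer fibrils of cartilage, and fibril-associated collagens sit on the surface of fibrils. In adult dermis fibroblasts are the main source, and the ear adds a plate of cartilage made by chondrocytes.

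The values are log2 expression values, so a difference of 1 is a 2-fold change in signal. The keratin genes Krt5, Krt14 and Krt10, which define epidermis, had vehicle means of 12.62, 12.16 and 12.71. Array medians over all 35556 probe set rows lay between 6.01 and 6.10, and the median vehicle mean over the 19938 genes was 6.54. Vehicle replicate 2 stood apart for collagens. It was the highest vehicle array for 36 of the 42 collagens (85.7%), against 34.1% of all genes. Of the vehicle arrays, it was also highest for the marker lists of skeletal muscle, adipocytes, endothelium and pericytes, cartilage, fibroblasts and myofibroblasts. It was lowest for those of keratinocytes, neutrophils and macrophages. The part of this in the results was not tested. Median SDs of a collagen between arrays were 0.16 in vehicle, 0.08 in anisomycin and 0.07 in imiquimod ears. Some genes also carried exactly the same value on more than 1 array, which held for 14 of 42 collagens (33.3%) and for 43.4% of all genes. For Col18a1, Col19a1 and Col26a1 all arrays of 1 group shared 1 value, so the SD of that group is 0 and understates the error.

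Most collagens were lower in treated ears. With anisomycin 25 of the 42 were lower than in vehicle ears, 2 were higher (Col12a1 and Col18a1) and 15 were not called, by limma with Benjamini-Hochberg adjustment over all 19938 genes at an adjusted p under 0.05. In this comparison 45.6% of all genes were called, 23.3% lower and 22.3% higher, against 64.3% of the collagens called and 59.5% lower. With imiquimod 28 were lower, 1 was higher (Col18a1) and 13 were not called. There the background was 42.7% of all genes called, 22.4% lower and 20.4% higher, against 69% of the collagens called and 66.7% lower. Median log2 differences of the collagens were -0.40 with anisomycin and -0.39 with imiquimod, against -0.01 and -0.03 over all genes. Both comparisons use the same vehicle arrays, so their numbers are not independent of each other.

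The arrays themselves showed the same. The mean over the 42 collagens was 7.38, 7.59 and 7.33 on the vehicle arrays, 7.01, 6.99 and 6.98 on the anisomycin arrays and 6.97, 6.99 and 6.93 on the imiquimod arrays. Every treated array lay below every vehicle array, and the treated groups overlapped each other. All 3 anisomycin arrays lay below all 3 vehicle arrays for 27 collagens and above them for 2, where 26.4% and 24.9% of all genes did so. For imiquimod these counts were 31 and 1, where 27.4% and 24.4% of all genes did so. Without vehicle replicate 2, 24 collagens were lower with anisomycin and 23 with imiquimod, with medians of -0.30 and -0.27. Under 4 other scalings of the arrays the number called lower was 24 to 30 with anisomycin and 21 to 30 with imiquimod, and no called member changed sign. The balance over all genes does depend on the scaling. Of all called genes 51% were lower with anisomycin, a share that was 38.5% after centring each array on its median and 62.9% after centring on stable genes, and with imiquimod 52.3% were lower, or 41.9% and 63.6% after these centrings.

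**Figure D1:**
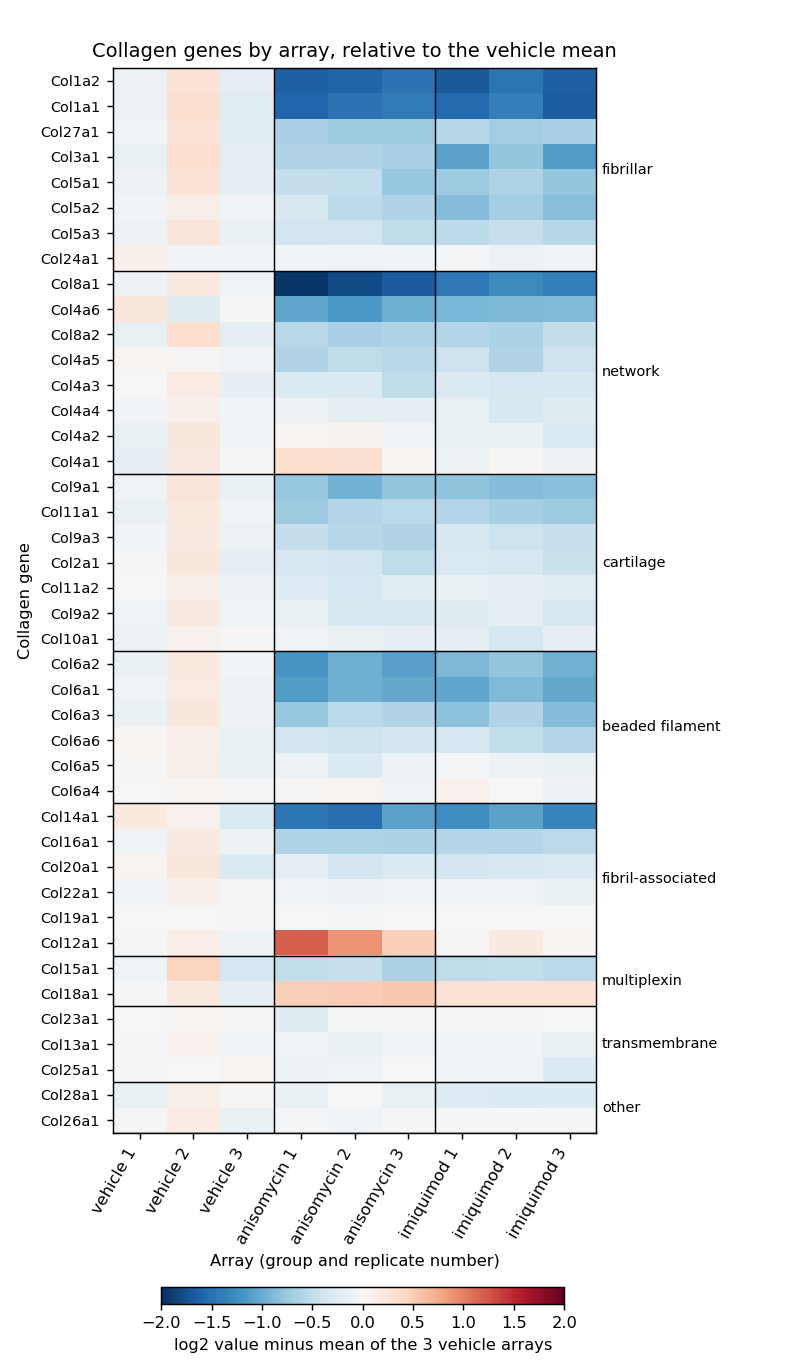
Log2 value of each of the 42 collagens (rows, grouped by type) on each of the 9 arrays (columns), as the difference from the mean of the 3 vehicle arrays of that gene, with blue for lower and red for higher. Col8a1, Col1a2, Col1a1 and Col14a1 are the darkest blue in both treated groups, Col12a1 is red on the anisomycin arrays and Col18a1 on both, and vehicle replicate 2 is pale red in most rows.

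The start sites of 33 of the 42 collagens were found in RefSeq's promoter table for build GRCm38.p6, with 36 windows of 250 bases before a start. The upstream windows of 5 collagens whose values are described below are shown for their range of responses, from the deepest falls (Col8a1, Col1a2) through smaller ones (Col6a1, Col3a1) to a rise (Col18a1). Each is written 5′ to 3′ on the gene's strand and ends at the base before the start, and capitals mark, on either strand, the CCAAT box, the TATA box as TATAAA, the core of the GC box as GGGCGG and the AP-1 site as TGANTCA. The windows are Col1a2 at chr6:4505368-4505617 on the plus strand, Col3a1 at chr1:45311288-45311537 on the plus strand, Col8a1 at chr16:57754738-57754987 on the minus strand, Col6a1 at chr10:76726045-76726294 on the minus strand and the upstream one of a pair of starts of Col18a1 at chr10:77166531-77166780 on the minus strand.
Col1a2: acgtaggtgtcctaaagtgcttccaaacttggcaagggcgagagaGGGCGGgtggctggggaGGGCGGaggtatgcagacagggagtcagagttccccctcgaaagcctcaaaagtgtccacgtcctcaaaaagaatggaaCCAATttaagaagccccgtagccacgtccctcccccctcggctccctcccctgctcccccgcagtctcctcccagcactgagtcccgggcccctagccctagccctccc
Col3a1: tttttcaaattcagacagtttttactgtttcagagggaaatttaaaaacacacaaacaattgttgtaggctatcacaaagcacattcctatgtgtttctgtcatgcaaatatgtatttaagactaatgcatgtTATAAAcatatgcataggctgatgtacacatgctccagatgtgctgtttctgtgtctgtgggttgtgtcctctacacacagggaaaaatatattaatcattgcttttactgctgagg
Col8a1: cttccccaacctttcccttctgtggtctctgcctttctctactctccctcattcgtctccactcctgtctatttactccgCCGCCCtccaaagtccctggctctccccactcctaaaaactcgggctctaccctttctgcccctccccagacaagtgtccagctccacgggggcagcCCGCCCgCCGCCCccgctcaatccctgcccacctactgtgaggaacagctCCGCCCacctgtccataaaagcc
Col6a1: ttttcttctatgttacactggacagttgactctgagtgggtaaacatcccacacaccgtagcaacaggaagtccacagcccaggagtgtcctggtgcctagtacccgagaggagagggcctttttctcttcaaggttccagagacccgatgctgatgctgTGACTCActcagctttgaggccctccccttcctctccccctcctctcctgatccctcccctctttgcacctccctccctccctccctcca
Col18a1: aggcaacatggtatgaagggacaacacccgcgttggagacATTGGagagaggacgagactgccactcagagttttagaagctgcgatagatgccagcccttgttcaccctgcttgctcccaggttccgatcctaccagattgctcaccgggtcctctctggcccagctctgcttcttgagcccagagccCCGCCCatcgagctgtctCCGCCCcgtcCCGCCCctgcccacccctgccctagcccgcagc

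These promoters differ in make-up. The Col1a2 window holds GGGCGG at 205 and at 188 bases before the start, and CCAAT at 109 bases before it. The Col8a1 window holds CCGCCC, the same letters on the other strand, 4 times, and the Col18a1 window 3 times. Col3a1 has no such run and instead TATAAA from 117 to 112 bases before the start. Col6a1 has TGACTCA, a match to TGANTCA, from 90 to 84 bases before the start. Over the set, 58.3% of the 36 collagen windows held GGGCGG, against 32.7% of all 32851 windows. Shares were 30.6% against 33.8% for CCAAT, 11.1% against 12.4% for TATAAA, 2.78% against 6.75% for the AP-1 letters TGANTCA, and 44.4% against 42.2% for CAGAC, a core of SMAD sites, all on both strands. A match is a description of the letters in this window. GGGCGG was in 14 of 20 windows (70%) of collagens lower with each treatment and in 7 of 16 windows (43.8%) of the other collagens, a difference that was not tested. The window of the other start of Col18a1 holds none of these motifs apart from CAGAC on the other strand.

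Fibrillar collagens had the lowest class median. Of the 8 measured, 7 were lower with each treatment, with median log2 differences of -0.60 with anisomycin and -0.75 with imiquimod, and the same 7 were called without vehicle replicate 2, with medians of -0.44 and -0.65. Col1a1 and Col1a2 encode the chains of type I collagen, the bulk of dermal fibrils. Col1a1 read 11.90, 12.35 and 11.81 on the vehicle arrays, 10.43, 10.53 and 10.63 on the anisomycin arrays and 10.46, 10.65 and 10.37 on the imiquimod arrays. Col1a2 read 11.45, 11.87 and 11.40 on vehicle, 9.94, 9.98 and 10.10 on anisomycin and 9.89, 10.11 and 9.94 on imiquimod arrays. For both genes all treated arrays lay well below all vehicle arrays and the treated groups covered the same range. Col1a1 fell 2.81-fold with anisomycin (log2 difference -1.49, SE 0.13, adjusted p = 1.85e-05) and 2.88-fold with imiquimod (-1.52, SE 0.13, adjusted p = 2.24e-05). Col1a2 fell 2.96-fold (-1.57, SE 0.12, adjusted p = 6.79e-06) and 3.02-fold (-1.59, SE 0.12, adjusted p = 9.16e-06). Without vehicle replicate 2 the Col1a1 differences were -1.33 and -1.36.

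Col3a1, the single chain of type III collagen, which mixes with type I in skin and vessels, read 10.20, 10.69 and 10.15 on vehicle, 9.75, 9.75 and 9.69 on anisomycin and 9.28, 9.58 and 9.23 on imiquimod arrays. Its groups did not overlap, with anisomycin between vehicle and imiquimod. The fall was 1.53-fold with anisomycin (-0.62, SE 0.14, adjusted p = 0.00538) and 1.98-fold with imiquimod (-0.98, SE 0.14, adjusted p = 0.000384). Its first 2 anisomycin arrays share 1 value. Type V chains, which set the width of type I fibrils, were lower as well. The differences with anisomycin and imiquimod were -0.58 and -0.70 for Col5a1, -0.48 and -0.80 for Col5a2 and -0.42 and -0.51 for Col5a3. Col27a1, a fibrillar chain known mainly from cartilage, fell by 0.70 and 0.64 on the log2 scale. Col24a1, known from developing bone, was the 1 fibrillar member not called, at -0.06 and -0.07.

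**Figure D2:**
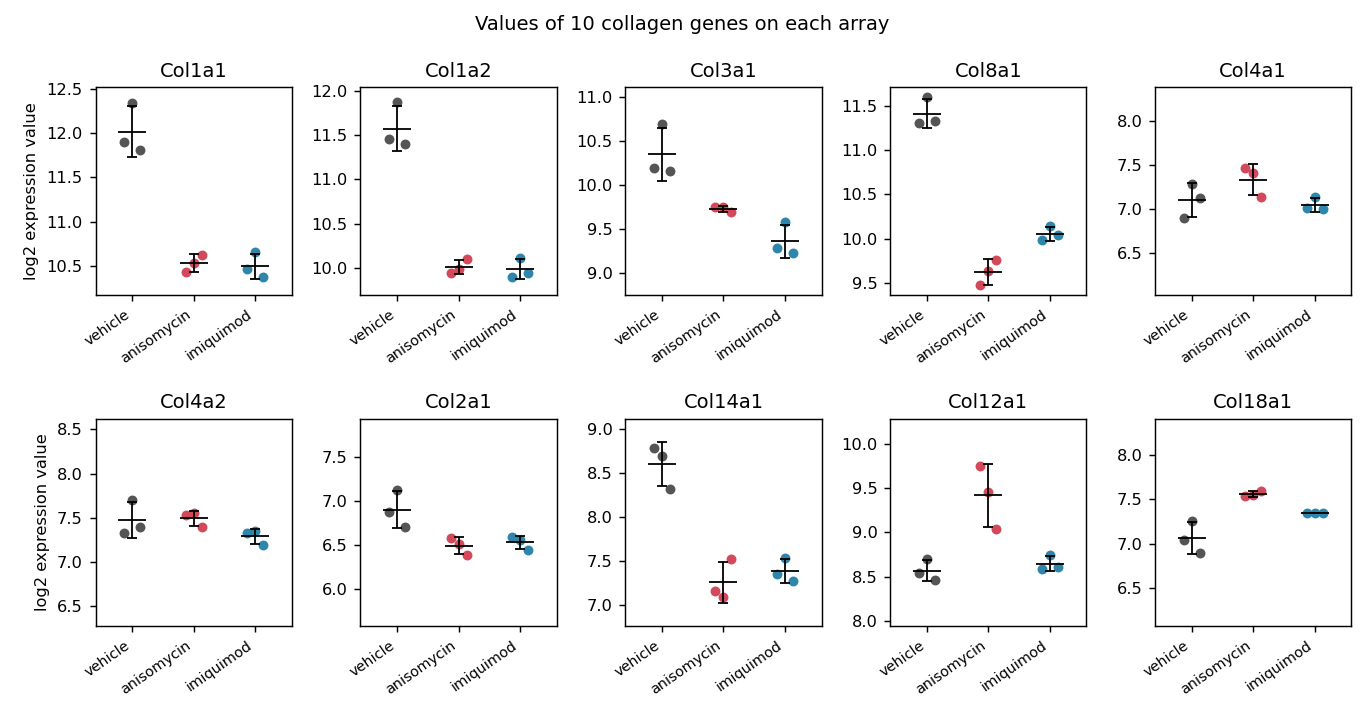
Log2 values of 10 collagens on each array (points) in vehicle, anisomycin and imiquimod ears, with the mean (long line) and 1 SD (bars) of the 3 arrays, each panel spanning the same range of log2 units. Col1a1, Col1a2, Col8a1 and Col14a1 are lower in all treated arrays, Col4a1 and Col4a2 overlap with vehicle, and Col12a1 is higher with anisomycin.

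Network collagens split by chain. Of 8 measured, 5 were lower with anisomycin and 6 with imiquimod, with medians of -0.45 and -0.40, and without vehicle replicate 2 the counts were 5 and 4. Col8a1, a chain of the type VIII collagen of vessel walls and other sheet-like matrices, had the largest fall of any collagen with anisomycin. It read 11.31, 11.61 and 11.33 on vehicle, 9.47, 9.63 and 9.76 on anisomycin and 9.98, 10.14 and 10.05 on imiquimod arrays, and no groups overlapped. The fall was 3.47-fold with anisomycin (-1.79, SE 0.10, adjusted p = 1.06e-06) and 2.57-fold with imiquimod (-1.36, SE 0.10, adjusted p = 7.37e-06). Its partner chain Col8a2 fell by 0.61 and 0.56 on the log2 scale.

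Type IV collagen is the scaffold of basement membranes. Col4a1 and Col4a2 encode the chains found in nearly all of them, and neither was called. Col4a1 read 6.91, 7.29 and 7.13 on vehicle, 7.46, 7.41 and 7.14 on anisomycin and 7.013, 7.137 and 7.001 on imiquimod arrays. Both treated groups overlapped vehicle, and the anisomycin arrays lay just above the imiquimod arrays. Its differences were 0.23 (SE 0.11, adjusted p = 0.125) and -0.06 (adjusted p = 0.727). With anisomycin Col4a1 was called higher without anisomycin replicate 3 (0.33, adjusted p = 0.0344), without vehicle replicate 2 (0.32, adjusted p = 0.042), after median-centring of the arrays, and with array weights. Col4a2 read 7.33, 7.70 and 7.39 on vehicle, 7.53, 7.55 and 7.39 on anisomycin and 7.33, 7.34 and 7.19 on imiquimod arrays. Its differences were 0.02 (adjusted p = 0.908) and -0.19 (adjusted p = 0.164). Both treated groups overlapped vehicle, and the anisomycin arrays lay above the imiquimod arrays. Between treatments neither gene was called (0.29, adjusted p = 0.106 for Col4a1 and 0.20, adjusted p = 0.193 for Col4a2).

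The chains of more restricted basement membranes were lower. Col4a5 and Col4a6 together form the type IV collagen found beneath epidermis and around smooth muscle. Col4a6 read 6.71, 6.25 and 6.51 on vehicle, 5.45, 5.35 and 5.52 on anisomycin and 5.57, 5.59 and 5.61 on imiquimod arrays, and every treated array lay below every vehicle array. It fell 2.07-fold with anisomycin (-1.05, SE 0.10, adjusted p = 2.97e-05) and 1.86-fold with imiquimod (-0.90, SE 0.10, adjusted p = 9.88e-05), and it is a collagen for which vehicle replicate 2 was the lowest vehicle array. Col4a5 fell by 0.56 and 0.48 on the log2 scale. Col4a3, a chain known from kidney and other specialised basement membranes, fell by 0.35 and 0.31, and its partner Col4a4 was at -0.16 (not called) and -0.23. The imiquimod calls of Col4a3 and Col4a4 were near the threshold. Both were lost without imiquimod replicate 2 or 3 or vehicle replicate 2, and that of Col4a3 also without vehicle replicate 1, with adjusted p up to 0.0684 for Col4a3 and 0.0865 for Col4a4.

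Cartilage collagens were lower too. Of 7 measured, 6 were lower with each treatment, and the medians were -0.41 and -0.37. Without vehicle replicate 2 the counts were 5 and 4 and the medians -0.29 and -0.26. Col2a1, the main fibril chain of cartilage, read 6.87, 7.12 and 6.70 on vehicle, 6.57, 6.51 and 6.39 on anisomycin and 6.59, 6.55 and 6.44 on imiquimod arrays, and the treated arrays all lay below the vehicle arrays. It fell by 0.41 (SE 0.10, adjusted p = 0.00877) and 0.37 (SE 0.10, adjusted p = 0.0154) on the log2 scale, and the imiquimod call was lost without imiquimod replicate 3 (-0.33, adjusted p = 0.0592). Type IX collagen coats type II fibrils, and its chains fell by 0.83 and 0.83 (Col9a1), 0.55 and 0.40 (Col9a3) and 0.26 and 0.25 (Col9a2) with anisomycin and imiquimod. The small change of Col9a2 was not called with anisomycin without anisomycin replicate 2 or 3 or vehicle replicate 2 (adjusted p up to 0.101). With imiquimod it was not called without anisomycin replicate 2, any imiquimod replicate or vehicle replicate 2 (adjusted p up to 0.129). Col11a1 and Col11a2 encode chains that start cartilage fibrils. Col11a1 fell by 0.61 and 0.66, and Col11a2 was at -0.28 (called) and -0.18 (not called, adjusted p = 0.0566, but called without vehicle replicate 3 at -0.23, adjusted p = 0.024). Col10a1, the collagen of hypertrophic cartilage, was at -0.12 (not called) and -0.23, and that imiquimod call was lost without imiquimod replicate 2 or vehicle replicate 2 or 3 (adjusted p up to 0.0868).

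Other markers of cartilage moved in both directions, most of them lower. Of 14 measured cartilage markers, 9 were lower and 2 higher with anisomycin, and 10 were lower and 1 higher with imiquimod. Over all genes 23.3% were lower and 22.3% higher with anisomycin, and 22.4% and 20.4% with imiquimod. The mean of the list was 7.69 to 7.95 on vehicle, 7.08 to 7.31 on anisomycin and 6.99 to 7.08 on imiquimod arrays. The proteoglycan gene Acan read 8.92, 9.51 and 9.25 on vehicle, 7.45, 8.23 and 7.98 on anisomycin and 7.95, 8.08 and 8.06 on imiquimod arrays, and treated arrays all lay below vehicle arrays, with differences of -1.34 and -1.20. Among the matrix genes the log2 differences were -2.067 and -1.496 for Chad, -1.90 and -2.14 for Ucma and -1.68 with each treatment for Cnmd, all called. Against these, Prg4, which encodes the joint lubricant lubricin, rose by 2.77 and 1.21 and had the largest change of the list with anisomycin. Sox9, the regulator of cartilage genes that hair follicles also express, rose by 0.96 with anisomycin and fell by 0.72 with imiquimod. The part of the amount of cartilage in each ear in these results was not tested.

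Type VI collagen, which forms beaded filaments around cells, had 6 measured chains, of which 4 were lower with each treatment. The medians were -0.51 and -0.62. Col6a2 read 9.42, 9.76 and 9.50 on vehicle, 8.37, 8.58 and 8.48 on anisomycin and 8.67, 8.77 and 8.59 on imiquimod arrays. Col6a1 read 9.65, 9.89 and 9.62 on vehicle, 8.61, 8.75 and 8.69 on anisomycin and 8.68, 8.84 and 8.71 on imiquimod arrays. No treated array reached a vehicle array for either gene. Col6a2 fell 2.12-fold (-1.08, SE 0.09, adjusted p = 1.51e-05) and 1.84-fold (-0.88, SE 0.09, adjusted p = 6.77e-05), and Col6a1 2.05-fold (-1.04, SE 0.08, adjusted p = 7.99e-06) and 1.97-fold (-0.98, SE 0.08, adjusted p = 1.62e-05). Col6a3, which joins these chains in the common form of the filament, fell by 0.64 and 0.76 on the log2 scale. The alternative chains differed. Col6a6 fell by 0.38 and 0.47, and its second, dimmer probe set fell by 0.65 and 0.64. Col6a5 was at -0.18 and -0.09 and Col6a4 at 0.01 and -0.01, none of them called, although Col6a5 was called with anisomycin without vehicle replicate 3 (-0.25, adjusted p = 0.0261).

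Fibril-associated collagens moved in both directions. Of 6 measured, 2 were lower and 1 higher with anisomycin, and 3 were lower with imiquimod, with medians of -0.19 and -0.21. The share called was 50% in each comparison, against 45.6% and 42.7% of all genes. The share lower was 33.3% and 50%, against 23.3% and 22.4% of all genes. Without vehicle replicate 2 the medians were -0.11 and -0.13, and 2 were lower with imiquimod. Col14a1 and Col12a1 encode related collagens that bind the surface of type I fibrils. Col14a1 read 8.79, 8.69 and 8.31 on vehicle, 7.16, 7.10 and 7.52 on anisomycin and 7.36, 7.53 and 7.27 on imiquimod arrays, and treated arrays all lay below vehicle arrays. It fell 2.53-fold (-1.34, SE 0.14, adjusted p = 5.51e-05) and 2.31-fold (-1.21, SE 0.14, adjusted p = 0.000132). Col12a1 read 8.54, 8.70 and 8.46 on vehicle, 9.76, 9.46 and 9.04 on anisomycin and 8.59, 8.74 and 8.61 on imiquimod arrays. All anisomycin arrays lay above the others, replicate 1 farthest, while imiquimod overlapped vehicle. Col12a1 rose 1.81-fold with anisomycin (0.85, SE 0.15, adjusted p = 0.00135) and with imiquimod was at 0.08 (adjusted p = 0.727).

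Col16a1, a minor fibril-associated collagen of the upper dermis, fell by 0.62 and 0.57 on the log2 scale. Col20a1 was at -0.29 (not called) and -0.33. Its imiquimod call (adjusted p = 0.0415) was lost without any 1 of 7 arrays, all but anisomycin replicate 1 and vehicle replicate 3, with adjusted p up to 0.125, and with anisomycin it was called without vehicle replicate 3 (-0.43, adjusted p = 0.00226). Col22a1 was at -0.08 and -0.09 and Col19a1 at -0.02 and -0.01, not called. Col19a1 was in the lowest 30% of all genes in every group, and its values repeat between arrays.

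The multiplexins, basement membrane collagens with long sugar chains, went opposite ways. Col18a1, the source of the fragment endostatin, read 7.05, 7.26 and 6.89 on vehicle, 7.54, 7.55 and 7.60 on anisomycin and 7.35 on each of the 3 imiquimod arrays, so both treated groups lay above vehicle. It rose 1.41-fold with anisomycin (0.50, SE 0.08, adjusted p = 0.000791) and 1.22-fold with imiquimod (0.29, SE 0.08, adjusted p = 0.0192). The imiquimod call was lost without any 1 of the 3 imiquimod arrays or vehicle replicate 1 (0.28 to 0.29, adjusted p up to 0.054) and with arrays centred on stable genes (0.21, adjusted p = 0.0802). Col15a1 fell by 0.53 (SE 0.16, adjusted p = 0.0248) and 0.51 (SE 0.16, adjusted p = 0.0305) on the log2 scale, and its vehicle replicate 2, at 7.62, lay above the others at 7.08 and 6.82. Its calls were lost without anisomycin replicate 2 or 3 (-0.56 and -0.47, adjusted p up to 0.075), and without any imiquimod replicate (adjusted p up to 0.0797), and without vehicle replicate 2 it was called at -0.31 and -0.29.

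None of the transmembrane collagens Col13a1, Col23a1 and Col25a1 was called with either treatment, with differences between -0.13 and -0.02. Col26a1 was at -0.05 and -0.03, and Col28a1 at -0.09 (not called) and -0.27 (adjusted p = 0.0138). The imiquimod call of Col28a1 was lost with cyclic loess scaling (adjusted p = 0.0688), and its value of 5.62 on vehicle replicate 1 recurs on anisomycin replicates 1 and 3. Cyclic loess ended 7 imiquimod calls in all, those of Col4a3, Col4a4, Col9a2, Col10a1, Col15a1, Col20a1 and Col28a1. Repeated quantile normalization ended those of Col4a3, Col4a4, Col9a2, Col10a1 and Col20a1, and median-centring the same ones except Col4a3. With anisomycin these 3 scalings each ended the call of Col9a2. By the moderated F test of limma over the 3 groups, 30 of the 42 collagens differed (71.4%), where 51.3% of all genes did. The 12 that did not were Col4a1, Col4a2, Col6a4, Col6a5, Col13a1, Col19a1, Col20a1, Col22a1, Col23a1, Col24a1, Col25a1 and Col26a1. Of the 11 collagens called against vehicle with neither treatment, 8 had means below the median of all genes in every group. That held for 7 of the 31 called with at least 1 treatment. The part of low signal in the missing calls was not tested.

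**Figure D3:**
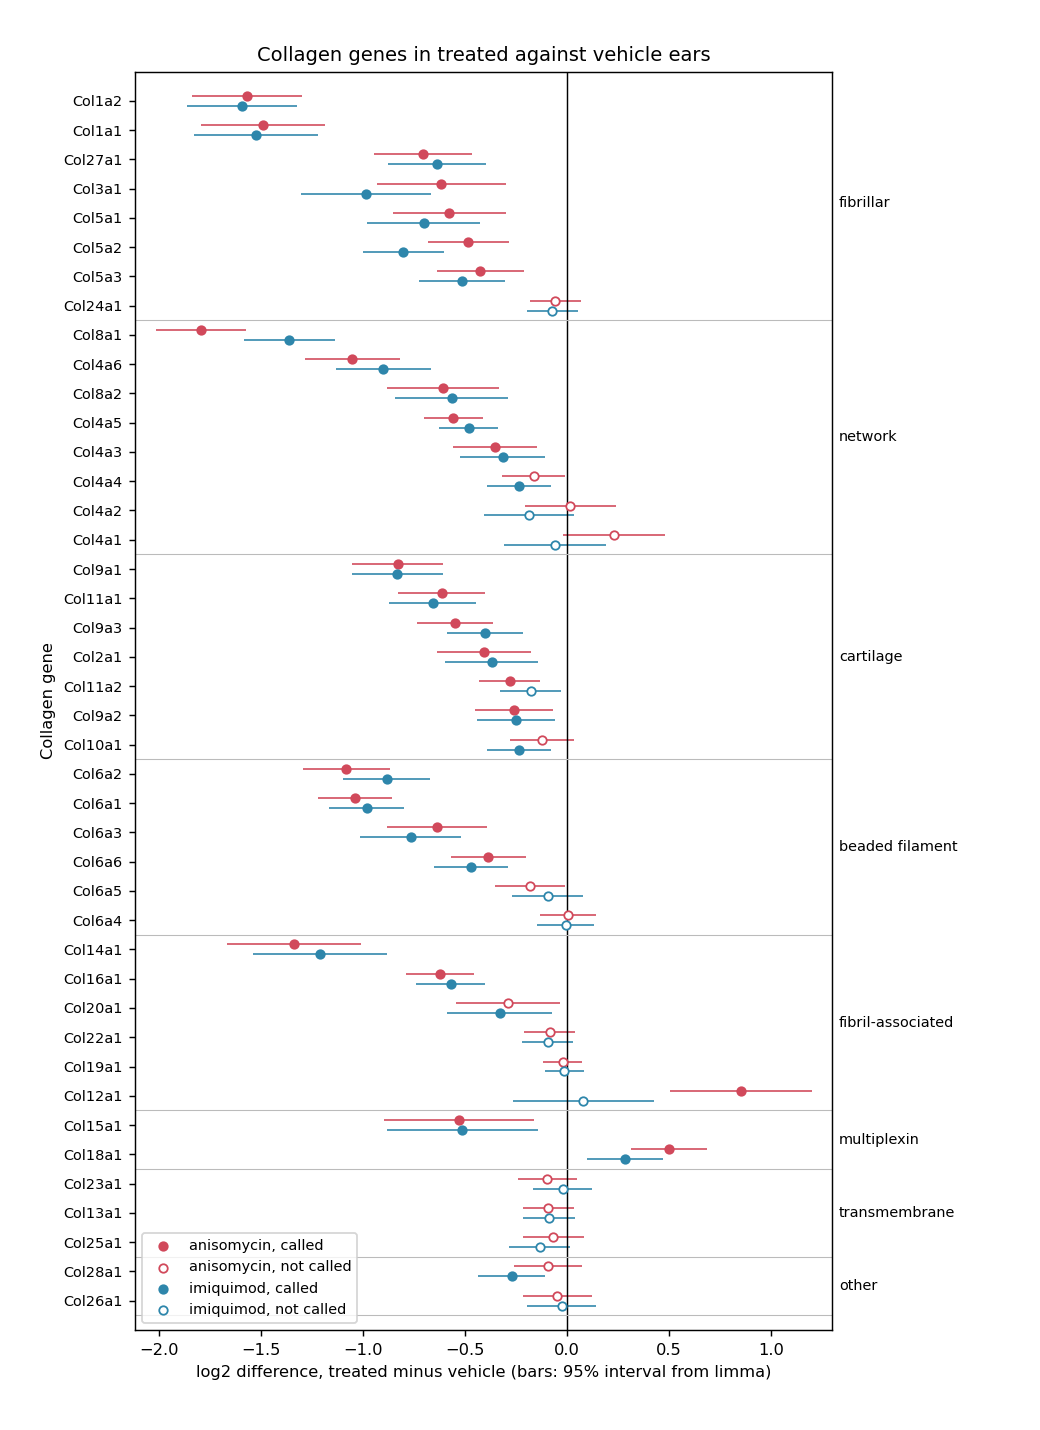
Log2 difference of treated minus vehicle ears for each of the 42 collagens, anisomycin in red and imiquimod in blue, with 95% intervals from limma and filled points for genes called at an adjusted p under 0.05. Most filled points lie left of 0, those of Col12a1 (anisomycin) and Col18a1 (both) lie right of it, and the largest falls are those of Col8a1, Col1a2 and Col1a1.

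Compared with each other, the treatments differed in 3 collagens. With anisomycin 2 collagens were higher than with imiquimod and 1 was lower (7.14% of the 42), where 20.4% of all genes were called, 10.8% higher and 9.59% lower. The error of this comparison is pooled with the vehicle arrays. Without vehicle replicate 2, 4 collagens were higher and 1 lower, where 23.9% of all genes were called. The counts also depended on the weighting of the arrays. With array weights 9 collagens were higher and 6 lower, where 42.9% of all genes were called. Col12a1 was 1.71-fold higher with anisomycin (0.77, SE 0.15, adjusted p = 0.00797), and it was called under every alternative tried. Col5a2 was 1.25-fold higher (0.32, SE 0.09, adjusted p = 0.0312), a call lost without anisomycin replicate 1 or 2 or imiquimod replicate 1 or 3 (0.24 to 0.34, adjusted p up to 0.107). Col8a1 was 1.35-fold lower (-0.44, SE 0.10, adjusted p = 0.014), a call lost without imiquimod replicate 2 (-0.39, adjusted p = 0.0585). Col3a1 was at 0.37 with an interval of 0.05 to 0.69 (adjusted p = 0.103) and was called only under some alternatives, among them without vehicle replicate 2 (adjusted p = 0.0184).

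For the 39 collagens not called between the treatments the 95% intervals of the difference ran from -0.46 to 0.69, and their bounds lay a median of 0.19 from the estimate, so differences within those intervals remain possible for single genes. Those of Col1a1 and Col1a2 were 0.04 and 0.03 with intervals of -0.27 to 0.34 and -0.24 to 0.30. By type, the median difference was 0.06 for fibrillar, -0.04 for network and -0.01 for cartilage collagens. In the fibrillar class 1 of 8 was called, in the network class 1 of 8 and in the cartilage class 0 of 7.

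**Figure D4:**
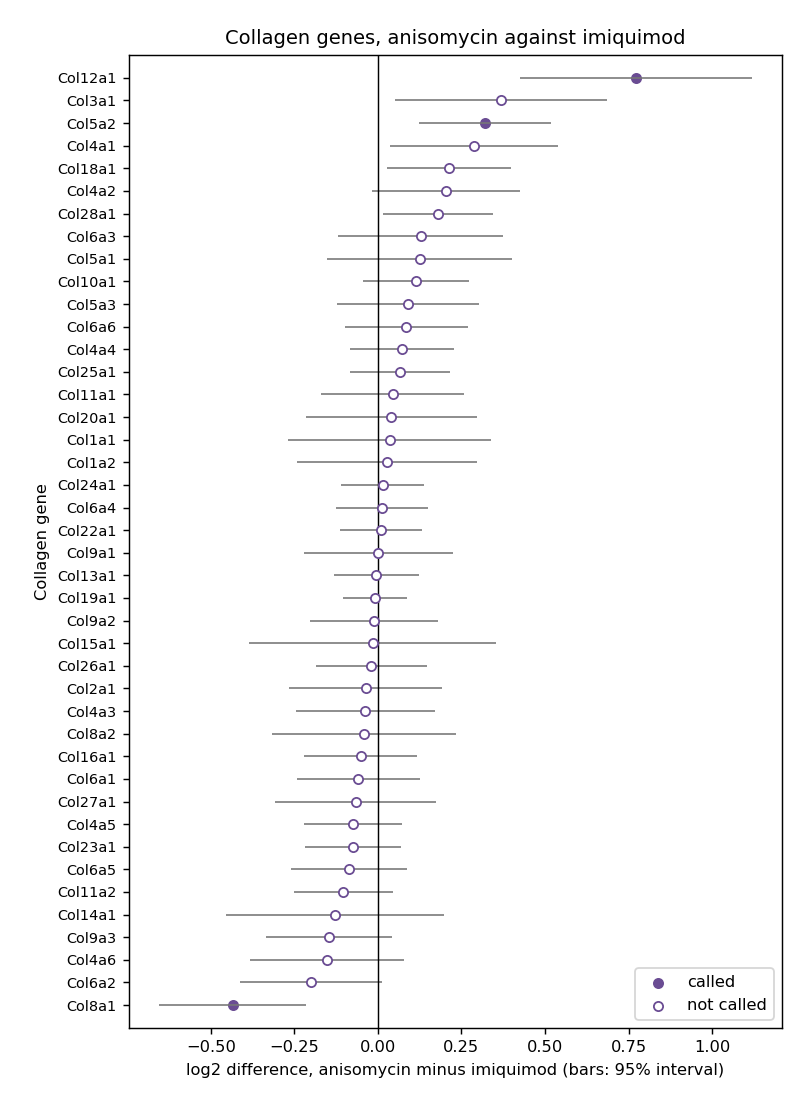
Log2 difference of anisomycin minus imiquimod ears for each of the 42 collagens in order of size, with 95% intervals from limma and filled points for genes called at an adjusted p under 0.05. Only Col12a1 and Col5a2 on the right and Col8a1 on the left are filled, and most intervals include 0.

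Chains that share a molecule or a class can be compared within an array, since a constant added to all values of an array leaves the difference between a pair of its probe sets as it was. For 7 such pairs and both treatments, this difference was set against its vehicle values with a two-sided exact permutation test of 3 arrays against 3, whose smallest possible p is 0.1 (0.108 after adjustment over the family). No pair could pass 0.05, so the ranges are given as a description. Col14a1 minus Col12a1 was -0.15 to 0.25 on vehicle, -2.60 to -1.52 on anisomycin and -1.34 to -1.21 on imiquimod arrays. Col8a1 minus Col8a2 was 4.28 to 4.51 on vehicle, 3.03 to 3.37 on anisomycin and 3.51 to 3.78 on imiquimod arrays. In both pairs every treated array lay below every vehicle array. Col4a6 minus Col4a2 was -1.45 to -0.62 on vehicle, -2.20 to -1.87 on anisomycin and -1.75 to -1.58 on imiquimod arrays, and Col1a1 minus Col3a1 was 1.66 to 1.70, 0.68 to 0.93 and 1.07 to 1.18. These 4 pairs did not overlap with vehicle under either treatment (exact p = 0.1 each), and the same held for Col4a5 with Col4a1 and Col15a1 with Col18a1. The partners of type I collagen shifted little against each other. Col1a1 minus Col1a2 was 0.41 to 0.47 on vehicle, 0.48 to 0.55 on anisomycin and 0.43 to 0.57 on imiquimod arrays, shifts of 0.08 and 0.07, so anisomycin lay just above vehicle (exact p = 0.1) and imiquimod overlapped it (exact p = 0.3).

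Several collagen genes lie next to each other in the RefSeq gene order, some in pairs that start from a shared stretch of DNA. In the neighbours Col3a1 and Col5a2, Col6a2 and Col6a1, and Col4a6 and Col4a5, both genes were lower with each treatment, and of the neighbours Col4a1 and Col4a2 neither was called. Others differed. Col9a1 was lower while its neighbour Col19a1 was not called, and Col6a6 was lower while Col6a5 and Col6a4, which follow it, were not called. Col19a1, Col6a5 and Col6a4 had means below the median of all genes in every group. A missing call there does not show that neighbours differ.

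Genes that modify, fold and secrete collagen were mixed, and those that trim and bind it were mostly lower. The counts stand against 22.3% of all genes higher and 23.3% lower with anisomycin, and 20.4% and 22.4% with imiquimod. Of 18 measured genes of chain modification and folding, 3 were higher and 4 lower with anisomycin (median 0.02), and 3 were higher and 7 lower with imiquimod (median -0.20). The share called was 38.9% with anisomycin, below the 45.6% of all genes, and 55.6% with imiquimod, against 42.7%. P4hb, the partner subunit of the prolyl hydroxylases, rose by 0.75 and 0.86, and P4ha3, one of their catalytic subunits, by 1.00 and 0.49, while the common catalytic subunit P4ha1 was at 0.13 and -0.05 and not called. Serpinh1 encodes the chaperone that binds procollagen. It read 7.97, 8.12 and 7.74 on vehicle, 8.25, 8.19 and 7.98 on anisomycin and 7.61, 7.65 and 7.51 on imiquimod arrays. Anisomycin overlapped vehicle (0.20, adjusted p = 0.154), and imiquimod lay below (-0.35, adjusted p = 0.0196). Fkbp14, a folding enzyme, was at -0.35 (not called) and -0.75. Of 11 genes of procollagen secretion, 3 were higher and 1 lower with anisomycin, and 3 were higher and 4 lower with imiquimod, or 36.4% and 63.6% called. Creb3l1, a factor that drives type I collagen genes and secretion, fell by 1.01 and 0.74, and Sec24d, a coat subunit of secretory vesicles, rose by 0.63 and 0.33.

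Of 7 measured genes that trim procollagen ends, 5 were lower with anisomycin and 6 with imiquimod, with medians of -0.75 and -0.95 and with 71.4% and 85.7% lower. Adamts14, a protease that removes the amino-terminal end, read 8.38, 8.75 and 8.44 on vehicle, 6.60, 6.49 and 6.58 on anisomycin and 6.54, 6.74 and 6.66 on imiquimod arrays. No treated array came near a vehicle array, and it fell by 1.97 and 1.88. Pcolce2, an enhancer of the protease that removes the other end, fell by 1.94 and 1.51. Among 4 crosslinking enzymes Loxl4 fell by 1.16 and 1.13. Lox, the main crosslinker, was at 0.03 (not called) and -0.49. Loxl1 rose by 0.41 with anisomycin, although its anisomycin and vehicle arrays overlapped, and was at -0.12 with imiquimod (not called). Proteins that bind fibrils were lower almost throughout, with 13 of 14 (92.9%) called lower in each comparison and medians of -0.84 and -0.83. Fibromodulin (Fmod) fell by 2.50 and 1.48, asporin (Aspn) by 1.68 and 1.47, dermatopontin (Dpt) by 1.59 and 1.48 and osteoglycin (Ogn) by 1.43 and 1.55.

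Genes that degrade collagen went the other way in part. Of 9 measured, 5 were higher and 3 lower with anisomycin, and 4 were higher and 4 lower with imiquimod, so 88.9% were called in each. Mmp13, the main interstitial collagenase of rodents, read 5.56, 5.18 and 4.89 on vehicle, 10.88, 10.65 and 10.04 on anisomycin and 5.94, 6.42 and 6.36 on imiquimod arrays. Anisomycin lay far above, and imiquimod lay between but above vehicle. It rose 39.8-fold with anisomycin (5.31, SE 0.24, adjusted p = 3.07e-07) and 2.04-fold with imiquimod (1.03, SE 0.24, adjusted p = 0.00605). Mmp1b, a relative of human interstitial collagenase, rose by 2.94 and 0.63. The neutrophil collagenase gene Mmp8 rose by 1.13 and 1.92 and the gelatinase gene Mmp9 by 1.74 and 0.97. Mmp2, a gelatinase of fibroblasts, fell by 1.15 and 0.98, the cathepsin gene Ctsk by 1.29 and 0.96 and Fap by 1.27 and 1.60.

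Of 5 inhibitors of collagenases, 4 were lower and 1 higher in each comparison. Timp1 read 6.26, 6.51 and 6.26 on vehicle, 11.43, 11.29 and 10.68 on anisomycin and 9.76, 10.12 and 10.02 on imiquimod arrays, with no overlap, and rose by 4.79 and 3.62. The membrane-anchored inhibitor Reck fell by 2.06 and 1.63, and Timp4 by 1.68 and 1.28. Of 10 collagen receptors, 4 were higher and 4 lower with anisomycin, and 1 was higher and 6 lower with imiquimod (80% and 70% called). Itga2, the integrin chain by which keratinocytes bind type I collagen, rose by 1.83 with anisomycin and fell by 0.57 with imiquimod, a difference between treatments of 2.40 (adjusted p = 0.000113). Of 16 regulators of collagen transcription, 8 were higher and 8 lower with anisomycin, and 2 were higher and 9 lower with imiquimod (100% and 68.8% called). Tgfb1, the growth factor best known for raising collagen genes, rose by 0.85 and 0.80. The related Tgfb2 fell by 1.24 and 1.22 and Tgfb3 by 1.70 and 1.56, and Cebpb rose by 1.38 and 1.06.

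**Figure D5:**
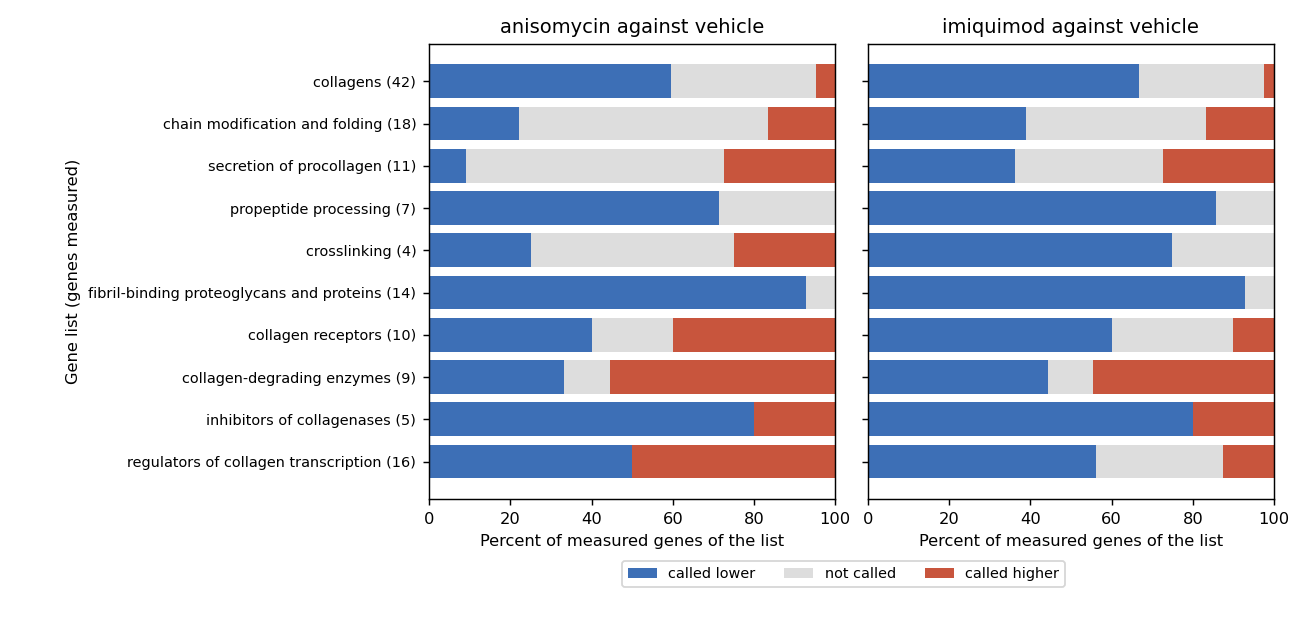
Percent of the measured genes of each list that were called lower (blue), not called (grey) or called higher (red) against vehicle, with anisomycin on the left and imiquimod on the right and the number of genes measured in brackets. Collagens, propeptide processing and fibril-binding proteins are mostly blue, and degrading enzymes and receptors are divided.

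Markers of the cells in an ear moved in the same arrays. Marker counts stand against 23.3% of all genes lower and 22.3% higher with anisomycin, and 22.4% and 20.4% with imiquimod. Of 15 measured fibroblast markers, 8 were lower and 3 higher with anisomycin and 10 were lower and 1 higher with imiquimod. Their mean was 9.07 to 9.14 on vehicle, 8.68 to 8.81 on anisomycin and 8.56 to 8.66 on imiquimod arrays. Several of these markers are themselves fibril-binding or matrix genes (Dpt, Lum, Dcn, Eln). Pdgfra, a receptor that defines fibroblasts, read 8.84, 9.03 and 8.95 on vehicle, 9.88, 9.70 and 9.29 on anisomycin and 8.84, 8.81 and 8.77 on imiquimod arrays. Anisomycin lay above vehicle (0.68, adjusted p = 0.00175), and imiquimod was not called (-0.14, adjusted p = 0.447). Of the other fibroblast receptors and surface genes, Thy1 was at 0.00 and -0.01 and not called, and Pdgfrb at -0.26 (not called) and -0.81. Fap fell 2.41-fold and 3.03-fold and Pi16 1.75-fold and 1.37-fold with anisomycin and imiquimod, while Dpp4 rose 1.64-fold and 1.9-fold.

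All 12 skeletal muscle markers were lower with both treatments, with a mean of 9.58 to 10.34 on vehicle, 7.88 to 8.08 on anisomycin and 7.65 to 8.25 on imiquimod arrays. Adipocyte markers were lower for 8 of 9 in each comparison, with a mean of 8.55 to 9.10 on vehicle, 7.28 to 7.51 on anisomycin and 7.68 to 7.77 on imiquimod arrays. Of 10 endothelial and pericyte markers, 4 were lower and 1 higher with anisomycin and 6 were lower with imiquimod, and their means were 7.37 to 7.82, 7.31 to 7.48 and 6.98 to 7.09. Of 7 myofibroblast markers, 2 were lower and 2 higher with anisomycin and 4 were lower and 1 higher with imiquimod. Of 10 neutrophil markers 8 were higher in each comparison, with means of 4.87 to 4.97 on vehicle, 7.62 to 7.98 on anisomycin and 8.06 to 8.17 on imiquimod arrays. Of 9 macrophage markers 8 and 7 were higher, with means of 7.52 to 7.63, 8.96 to 9.13 and 8.80 to 8.90. Keratinocyte markers were divided, with 3 higher and 3 lower of 9 with anisomycin and 4 higher and 1 lower with imiquimod, and means of 11.53 to 11.85, 11.21 to 11.66 and 11.73 to 11.83. Against the 45.6% and 42.7% of all genes called, the share called was nearest to that background for endothelial and pericyte markers with anisomycin, at 50%, and for keratinocyte markers with imiquimod, at 55.6%. The part of these shifts in the collagen results was not tested.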

How the data were processed

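The 9 whole-ear RNA samples were measured on Mouse Gene 1.0 ST arrays of Affymetrix, as the labels state. The authors deposited log2 values from RMA, per the submitters' processing notes. RMA subtracts background, equalises array distributions by quantiles and combines probes into probe sets, and the sources used here give no version of it. The log2 scale was judged from the range of 2.39 to 13.97. Of 35556 rows, 21789 carried 1 symbol, giving 19938 genes with the brightest probe set kept. All 9 arrays entered 1 model of 3 group means, fitted in R 4.3.3 with limma 3.58.1, with no filter and no block (6 residual and 3.16 prior degrees of freedom), and tested two-sided with Benjamini-Hochberg adjustment over all genes at 0.05. The fit was tested on simulated data with independent noise and few changed genes. The measured data have many changed genes and repeated values, so that test does not show how the fit performs on them. The number of arrays limits the precision. Values of different probe sets are not compared as levels, and the table names no genome build.

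The members, the gene types, the pathway and marker lists and the partner pairs were chosen with earlier results of these data known. Values on every array are given for collagens called against vehicle with a log2 size of at least 1, those called higher, those called between treatments with a size of at least 0.5, and Col1a1, Col1a2, Col3a1, Col4a1, Col4a2 and Col2a1; of the lists, up to 4 called genes by size and Serpinh1, P4ha1, Lox, Mmp13, Timp1, Pdgfra, Acan and Sox9 are named. Loxl1, Thy1, Pdgfrb, Mmp8, Mmp9, Fkbp14, Itga2 and Timp4 were added after their values were seen where the rule does not name them. Tgfb1 is also given although the rule does not name it, and not every list gene that the rule allows is given. Alternatives were other variance priors, filters, scalings, probe set rules, weights, a replicate block, fewer groups and leaving out each array.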

Additional observations from a re-analysis of the deposited data

How the results depend on the processing

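Under 21 alternatives, 20 planned and 1 (leaving out genes whose arrays share a value) chosen after seeing the data, no collagen called in a comparison changed sign; 89 of 2601 single values changed sign where neither value was called. With anisomycin 25 collagens were lower (23 to 30 under the alternatives, and 23 to 27 leaving out 1 array), 23 of them under every alternative in which they were tested; with imiquimod 28 (21 to 30, and 22 to 28 leaving out 1 array), 20 of them likewise. Of these, 3 (Col3a1, Col4a3, Col4a5) and 2 (Col3a1, Col4a5) were not tested without genes with shared values. Lone counts moved. Collagens higher with anisomycin numbered 2, but 1 without genes with shared values (Col18a1 is then not tested), and 2 to 3 leaving out 1 array. The 1 collagen higher with imiquimod became 0 with arrays centred on stable genes and 0 without genes with shared values, and 0 to 1 leaving out 1 array. Between treatments, the 2 higher became 1 with all rows tested, 9 with array weights, 4 with only the 2 groups compared and 1 to 4 leaving out 1 array. The 1 lower became 6 with array weights and 0 to 1 leaving out 1 array. With array weights 42.9% of all genes were called between treatments, where the main fit called 20.4%. The cause of these moves was not tested. Without genes with shared values 28 collagens were tested, and 23 and 24 were lower against vehicle, where 32.2% and 30.5% of the 11292 remaining genes were. The labels do not say what a replicate number pairs. Correlations of deviations from the group mean between arrays of the same number were -0.20 to 0.20. Arrays of different numbers were not compared, so these values cannot settle whether the samples are paired. With the replicate block 25 collagens were lower and 2 higher with anisomycin, 27 lower and 1 higher with imiquimod, and 3 higher and 1 lower between treatments. Col19a1, the 1 dim member, limits what can be said of it.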
